A study of Arabidopsis thaliana with 8 samples.

Results

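Roots of Arabidopsis thaliana seedlings whose shoots had grown in light for 7 days were compared with roots of seedlings kept wholly in the dark for 7 days. The comparison used the 4 libraries taken at 7 days out of 8 in the study, and took every locus with at least 10 counts in 2 of those 4 libraries, which left 20612 of 33602 loci. No value of light against dark entered that rule. At its edge, 99 loci just inside it had a second-highest 7-day count of 10, and 130 loci just outside it had 9.

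All seedlings were wild-type Col-0, stratified at 4 °C in the dark and grown at 21 °C on vertical plates of sucrose-free Murashige and Skoog medium. The lit-shoot group received white light at 130 µmol for 16 h a day, with 8 h of dark, in a modified D-Root device that keeps the roots themselves unlit. The dark-shoot group grew on plates wrapped in foil, so neither organ saw light. The roots of both groups were therefore dark, and the groups differed in the light given to the shoot. Each group had 2 biological samples of about 70 seedlings pooled, and the study's other 4 libraries held the same groups at 4 days. RNA was depleted of ribosomal RNA, so transcripts without a poly(A) tail and organelle transcripts stayed in.

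A root makes no sugar of its own. It lives on sucrose that the lit shoot exports through the phloem, along with mobile signals such as the transcription factor HY5, hormones and amino acids. Where carbon runs short, plant cells slow growth and division, and the kinase SnRK1 helps switch on genes that recycle amino acids, lipids and proteins for energy.

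The 7-day libraries held 25849135 and 30555290 counts with lit shoots, against 26854333 and 27787166 counts with dark shoots. Log2 CPM across genes correlated at 0.982 between the 2 lit-shoot libraries and at 0.986 between the 2 dark-shoot libraries, against 0.772 to 0.793 between groups. Organelle loci took 7.91% and 4.15% of counts with lit shoots, against 5.57% and 5.93% with dark shoots. Levels are given as CPM, the counts of a locus scaled to a common library total. Fold changes are log2 of lit over dark shoots, over 2 libraries in each group. A locus was called at a Benjamini-Hochberg adjusted p below 0.05 in edgeR's quasi-likelihood test over all 20612 loci. The value after ± is the size of the log2 effect divided by the square root of that test's F statistic. It is an approximate standard error from the fit of all 8 libraries, and is unreliable where a group has few counts. With 2 samples against 2, an exact permutation test cannot go below 0.333, so each call rests on the spread that edgeR shares across loci.

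Most of the root transcriptome differed between the groups. Of the 20612 loci, 7541 rose with lit shoots and 6848 fell, so that 69.8% were called, 36.6% higher and 33.2% lower. Many differences were modest, with 5776 of the called loci (40.1%) under a 2-fold change. The larger changes lay mostly on the higher side: 1697 loci rose by more than 8-fold and 525 fell by more than 8-fold. The median log2 fold change over all loci was 0.06, and scaling by library totals alone shifted that median by 0.17. Under that scaling 8502 loci rose and 5713 fell, so that 59.8% of calls were higher, against 52.4% with the trimmed-mean scaling used here. The 2 libraries of one group lay wholly above those of the other at 85.9% of loci. In pooled roots, a lower level of a transcript can mean less of it per cell or fewer cells that make it, and these data cannot tell the 2 apart.

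**Figure D1:**
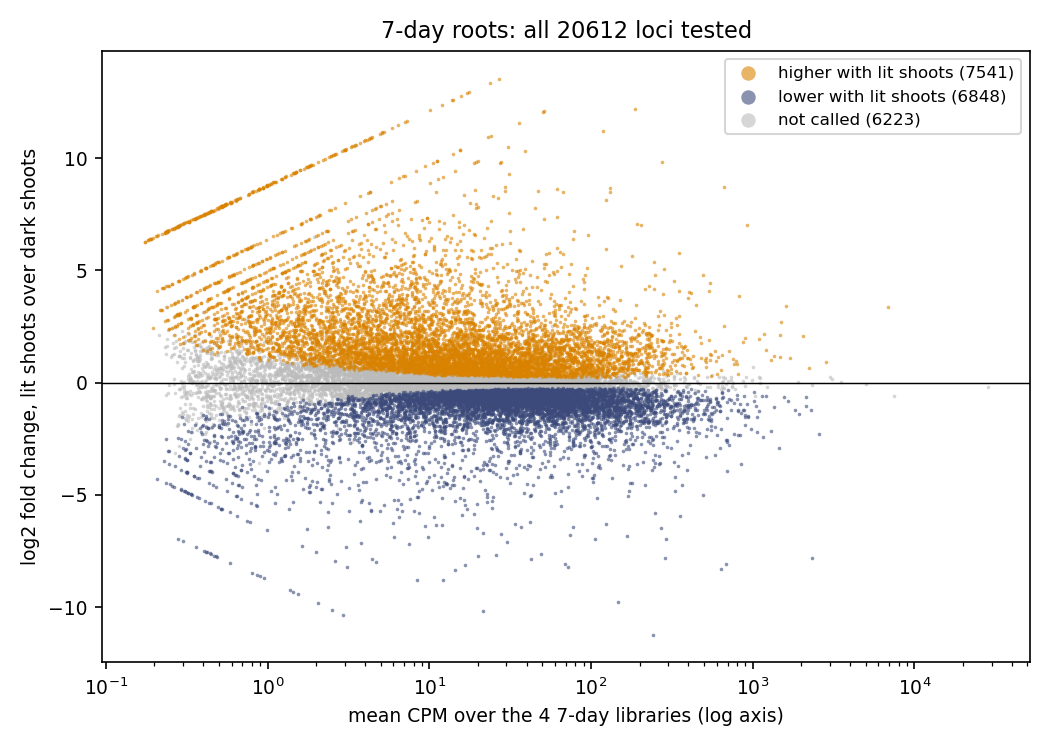
Log2 fold change of lit over dark shoots in 7-day roots (vertical axis) against mean CPM over the 4 libraries (horizontal log axis), 1 point per locus. The 7541 loci that rose are orange, the 6848 that fell are blue and the 6223 not called are grey. The straight diagonal rows at the far left are loci with 0 or a few counts in 1 group.

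Some transcripts were seen in only 1 group at this depth. No count fell in either dark-shoot library for 225 tested loci, and none in either lit-shoot library for 22. Such loci passed the filter only with at least 10 counts in both libraries of the other group, so their direction was set by the filter. At loci averaging under 1 CPM, 671 rose and 259 fell of 1656. At loci of 100 to 1000 CPM the balance turned over, with 600 higher and 1197 lower of 2160.

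In absolute CPM, among called nuclear loci with a symbol, the largest gains were in root defence and primary metabolism. PYK10, the beta-glucosidase of the endoplasmic reticulum bodies of roots, had 15163 and 9996 CPM with lit shoots, against 971 and 1465 CPM with dark shoots (log2 fold change 3.37 ± 0.28, adjusted p = 1.58e-05). PBP1, a lectin that binds PYK10, rose too, with 2043 and 1836 CPM with lit shoots, against 365 and 489 CPM with dark shoots (log2 fold change 2.18 ± 0.16, adjusted p = 8.79e-06). Both stood well apart in the 2 groups. CYP81F4, a cytochrome P450 that modifies indole glucosinolates, had 1755 and 1311 CPM with lit shoots, against 76.3 and 132 CPM with dark shoots (log2 fold change 3.88 ± 0.37, adjusted p = 6.1e-05), although a locus on the opposite strand overlaps 99.6% of its length and the strand of counting is not known. DR4, annotated as a protease inhibitor of the Kunitz family, had 1647 and 1023 CPM with lit shoots, against 4.34 and 2.06 CPM with dark shoots (log2 fold change 8.71 ± 0.90, adjusted p = 0.000179). At DR4 the log2 fold change was 9.33 without dark-shoot replicate 1. The proton pump HA2 (log2 fold change 0.91), the glutamine synthetase GSR2 (2.09), the methionine synthase ATMS1 (2.68), the S-adenosylhomocysteine hydrolase HOG1 (1.47), the mitochondrial ADP/ATP carrier AAC1 (1.96) and the glycolytic enzyme GAPC1 (1.08) completed the 10 largest gains.

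The 10 largest losses in CPM, among called nuclear loci with a symbol, included genes of darkness and starvation, and DIN2 lost the most. DIN2, a dark-inducible beta-glucosidase, had 14.5 and 26.6 CPM with lit shoots, against 5991 and 3234 CPM with dark shoots (log2 fold change -7.81 ± 0.49, adjusted p = 9.31e-06). ICL, the isocitrate lyase of the glyoxylate cycle, had 4.92 and 5.08 CPM with lit shoots, against 1438 and 1289.8 CPM with dark shoots (log2 fold change -8.09 ± 0.47, adjusted p = 7.7e-06). The 2 dark-shoot libraries differed from each other at DIN2 by less than 2-fold, far less than either differed from the lit-shoot libraries. DIN10, of the raffinose synthase family, had 378 and 358 CPM with lit shoots, against 2110.4 and 1822 CPM with dark shoots (log2 fold change -2.42 ± 0.18, adjusted p = 9.26e-06). HSPRO2, named for a nematode resistance gene of sugar beet, fell as well (-3.94). CYP81D11 (-2.92), the polyubiquitin UBQ3 (-1.22) and the transporter ABCC1 (-1.39) lost the most CPM after DIN2. The transporter ABCG37 (-1.22), DJ1A (-1.04) and the zinc-finger protein DI19 (-2.20) also fell.

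Most genes of cell division rose. Of 40 tested, 32 rose and 5 fell, with a median log2 fold change of 2.44. All 11 replication genes, all 11 mitotic cyclins and kinases and all 4 cytokinesis genes rose. The D-type cyclins with CDKA link nutrient and hormone signals to the start of the cycle. Of these 6 genes, 3 rose (50%) and none fell, against 36.6% and 33.2% over all loci. CYCD4;1 had 5.68 and 5.89 CPM with lit shoots, against 0.199 and 0.477 CPM with dark shoots (log2 fold change 4.06 ± 0.38, adjusted p = 2.5e-05), and CYCD3;1 had 18.8 and 13.9 CPM with lit shoots, against 2.11 and 1.95 CPM with dark shoots (log2 fold change 3.01 ± 0.22, adjusted p = 7.58e-06). CYCD6;1 was not called (adjusted p = 0.272). At CYCD4;1 the log2 fold change was 4.797 without dark-shoot replicate 2.

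Within replication, PCNA1, the sliding clamp of DNA polymerase, had 15.4 and 19.5 CPM with lit shoots, against 1.03 and 0.624 CPM with dark shoots (log2 fold change 4.40 ± 0.24, adjusted p = 2.55e-06). TSO2, a ribonucleotide reductase subunit that supplies deoxynucleotides, had 50.2 and 44.7 CPM with lit shoots, against 5.53 and 3.08 CPM with dark shoots (log2 fold change 3.47 ± 0.23, adjusted p = 6.12e-06). Lit-shoot values were several times the dark-shoot ones in every pairing of libraries. Among mitotic genes, the B-type cyclin CYCB1;3 had 16.5 and 15.5 CPM with lit shoots, against 0.557 and 0.551 CPM with dark shoots (log2 fold change 4.84 ± 0.23, adjusted p = 1.47e-06), and CYCB1;2 had 25.1 and 26.5 CPM with lit shoots, against 1.87 and 1.91 CPM with dark shoots (log2 fold change 3.77 ± 0.19, adjusted p = 1.93e-06). HIK, a kinesin needed for the cell plate, had 30.2 and 38.1 CPM with lit shoots, against 2.35 and 1.25 CPM with dark shoots (log2 fold change 4.25 ± 0.25, adjusted p = 3.96e-06), and PLE, a microtubule bundler of the same structure, had 20.6 and 19.4 CPM with lit shoots, against 1.27 and 0.954 CPM with dark shoots (log2 fold change 4.17 ± 0.18, adjusted p = 1.26e-06). The lowest lit-shoot library lay far above the highest dark-shoot library at all 4 genes.

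The brakes on division split. Of 8 inhibitors and endocycle genes, 5 fell (62.5%) and 3 rose (37.5%), against 33.2% and 36.6% over all loci. The CDK inhibitor KRP2 had 10.5 and 11.2 CPM with lit shoots, against 1.87 and 1.4 CPM with dark shoots (log2 fold change 2.73 ± 0.21, adjusted p = 9.94e-06), and the anaphase-promoting complex activator CCS52B had 23.6 and 21.1 CPM with lit shoots, against 3.18 and 4.99 CPM with dark shoots (log2 fold change 2.44 ± 0.20, adjusted p = 1.28e-05). LGO, a CDK inhibitor of the SIAMESE family, was the third to rise (1.60), while the other 5, KRP1 among them at -2.42, fell.

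The following stretches are the 150 bases before the annotated start of each gene in TAIR10.1 (RefSeq annotation), printed 5′ to 3′ on the gene's strand. They are shown because these cell-cycle genes moved together, and the 5 genes were picked from the lists after their values were seen. Capitals in the first 3 mark CAACGG, the core of the mitosis-specific activator element bound by MYB3R proteins, or its reverse complement CCGTTG, and in CYCB1;3 also CTTATC, the reverse complement of the I-box GATAAG. Capitals in the MCM genes, subunits of the replicative helicase, mark the site II element GGCCCA or its reverse complement TGGGCC. The stretches lie at chr3:3627274-3627423, minus strand for CYCB1;3, chr5:1861704-1861853, minus strand for CYCB1;2, chr5:20964538-20964687, minus strand for PLE, chr1:16970064-16970213, plus strand for MCM2 and chr5:18773707-18773856, minus strand for MCM3.
CYCB1;3: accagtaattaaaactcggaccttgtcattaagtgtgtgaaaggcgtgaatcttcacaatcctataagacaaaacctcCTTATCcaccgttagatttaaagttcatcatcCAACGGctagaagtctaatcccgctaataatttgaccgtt
CYCB1;2: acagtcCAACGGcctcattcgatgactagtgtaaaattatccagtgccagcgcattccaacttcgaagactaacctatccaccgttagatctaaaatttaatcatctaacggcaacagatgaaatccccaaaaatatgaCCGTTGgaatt
PLE: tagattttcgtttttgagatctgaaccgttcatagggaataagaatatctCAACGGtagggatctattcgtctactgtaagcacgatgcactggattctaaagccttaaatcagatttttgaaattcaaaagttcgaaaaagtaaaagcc
MCM2: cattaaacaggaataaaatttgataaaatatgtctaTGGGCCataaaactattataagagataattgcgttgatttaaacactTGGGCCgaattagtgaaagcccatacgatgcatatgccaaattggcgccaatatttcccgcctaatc
MCM3: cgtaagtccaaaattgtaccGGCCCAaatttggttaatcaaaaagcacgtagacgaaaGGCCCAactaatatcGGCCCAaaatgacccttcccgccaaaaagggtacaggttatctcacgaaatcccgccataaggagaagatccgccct

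Over 250 bases before the start, on both strands, CAACGG occurred in 6 of 11 mitotic genes (54.55%) and 3 of 4 cytokinesis genes, against 5.31% of all 26711 protein-coding loci and 5.85% of the 7334 protein-coding loci that rose. GGCCCA occurred in 8 of 11 replication genes (72.7%), against 13.9% of all and 16.4% of those that rose. These are counts of letters with no test, and both elements are known for these families from other work.

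Genes of ribosome production followed in part. Of 15 nucleolar factors, 8 rose (53.3%) and 3 fell (20%), against 36.6% and 33.2% over all loci, with a median of 0.53. FIB2, a fibrillarin that methylates ribosomal RNA, had 51.2 and 63.9 CPM with lit shoots, against 4.62 and 6.31 CPM with dark shoots (log2 fold change 3.39 ± 0.18, adjusted p = 2.4e-06), and the core box C/D protein NOP56 had 130.1 and 167 CPM with lit shoots, against 32.3 and 41.7 CPM with dark shoots (log2 fold change 2.00 ± 0.18, adjusted p = 2.06e-05). NUC2, a second nucleolin, went the other way, with 7.68 and 5.26 CPM with lit shoots, against 16.6 and 15.1 CPM with dark shoots (log2 fold change -1.30 ± 0.20, adjusted p = 0.000486). SWA1 was not called (adjusted p = 0.857), and the small falls of APUM23 (-0.26) and RH36 (-0.49), 21.3% of which an opposite-strand locus overlaps, depended on settings. APUM23 was no longer called with the 7-day libraries alone (-0.26), by DESeq2 (-0.28), under scaling by library totals (-0.09), with no filter (-0.25), with the replicate block (-0.26), without dark-shoot replicate 1 (-0.18), without lit-shoot replicate 1 (-0.25) and without lit-shoot replicate 2 (-0.27). RH36 was no longer called under scaling by library totals (-0.32) and without dark-shoot replicate 1 (-0.43). Small nucleolar RNAs, which guide such modification, rose at 31 of 60 tested loci and fell at 2, with a median of 1.32. Only 18 of them were called higher without dark-shoot replicate 1 and 20 without lit-shoot replicate 2. Long non-coding RNA loci leaned the other way, with 16 of 158 higher and 77 lower at a median of -0.76. Without dark-shoot replicate 1, 9 of these were higher.

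Carbon starvation genes moved in the opposite direction to division. Of 29 tested, 27 fell with lit shoots and 2 rose, and the median was -2.57. All 6 dark-inducible genes fell, at a median of -6.04. Besides DIN2, described above, the glutamine-dependent asparagine synthetase DIN6 (ASN1) had 1.49 and 4.27 CPM with lit shoots, against 430.3 and 234 CPM with dark shoots (log2 fold change -6.82 ± 0.66, adjusted p = 0.000129). At DIN6 the log2 fold change was -7.79 without lit-shoot replicate 2. The enzymes that break down leucine, isoleucine and valine fell at all 8 loci. BCAT2, the mitochondrial aminotransferase of their first step, had 4.55 and 4.6 CPM with lit shoots, against 685 and 467 CPM with dark shoots (log2 fold change -6.97 ± 0.48, adjusted p = 1.91e-05). BCE2, a subunit of the branched-chain ketoacid dehydrogenase, had 26.5 and 32.4 CPM with lit shoots, against 822 and 584 CPM with dark shoots (log2 fold change -4.57 ± 0.22, adjusted p = 1.66e-06). The dark-shoot libraries exceeded the lit-shoot ones by more than 10-fold in each pairing of libraries at both genes.

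Other amino acid breakdown genes fell at 6 of 8 loci. THA1, a threonine aldolase, had 0.51 and 0.18 CPM with lit shoots, against 372 and 213 CPM with dark shoots (log2 fold change -9.76 ± 0.74, adjusted p = 4.39e-05), and MGL, the methionine gamma-lyase, had 29.5 and 30.4 CPM with lit shoots, against 1102 and 804 CPM with dark shoots (log2 fold change -4.99 ± 0.25, adjusted p = 2e-06). At THA1 the log2 fold change was -10.63 without lit-shoot replicate 1 and -9.15 without lit-shoot replicate 2. GDH3 and P5CDH were the exceptions. GDH3, a glutamate dehydrogenase, had 1.02 and 1.65 CPM with lit shoots, against 0.239 and 0.11 CPM with dark shoots (log2 fold change 2.93 ± 0.82, adjusted p = 0.0109), and P5CDH, 21.0% of which an opposite-strand locus overlaps and which oxidises proline's breakdown product, differed by only 0.32. At GDH3 the log2 fold change was 3.54 without dark-shoot replicate 1. GDH3 was no longer called without dark-shoot replicate 2 (2.43) and without lit-shoot replicate 2 (2.53). P5CDH was no longer called with the 7-day libraries alone (0.32), without dark-shoot replicate 2 (0.23) and without lit-shoot replicate 2 (0.23). Sugar-sensing and energy genes fell at all 7 tested loci. TPS11 and TPS9, class II trehalose-phosphate synthase proteins, had log2 fold changes of -2.42 and -2.32, with 87.1 and 92.7 CPM with lit shoots, against 506 and 454 CPM with dark shoots for TPS11.

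Transcripts of lipid and protein recycling genes were mostly lower too, by less. Fatty acid breakdown genes fell at 13 of 18 loci and rose at none, with a median of -0.72. The thiolase PKT3 had 369 and 382 CPM with lit shoots, against 1815 and 1336 CPM with dark shoots (log2 fold change -2.07 ± 0.17, adjusted p = 1.23e-05), and the triacylglycerol lipase SDP1 had 80.0 and 89.8 CPM with lit shoots, against 354 and 281 CPM with dark shoots (log2 fold change -1.90 ± 0.14, adjusted p = 8.73e-06). ACX3 was not called (adjusted p = 0.971). In the glyoxylate cycle, ICL stood far beyond its partner malate synthase, MLS, which had 9.1 and 18.6 CPM with lit shoots, against 56.9 and 60.7 CPM with dark shoots (log2 fold change -2.08 ± 0.29, adjusted p = 0.000425), and PMDH2 was not called (adjusted p = 0.769). At MLS the log2 fold change was -2.69 without lit-shoot replicate 2. Autophagy genes fell at 11 of 18 loci and rose at 1. ATG8B, one of the ubiquitin-like proteins that coat the autophagosome, had 34.9 and 28.1 CPM with lit shoots, against 144 and 124 CPM with dark shoots (log2 fold change -2.09 ± 0.17, adjusted p = 1.28e-05), and ATG8F fell by 1.31. ATG8H was the one that rose, with 41.7 and 63.7 CPM with lit shoots, against 31.2 and 26 CPM with dark shoots (log2 fold change 0.88 ± 0.20, adjusted p = 0.00362), and ATG8I was not called (adjusted p = 0.604). In the core machinery the lipid-binding proteins ATG18G (-1.30) and ATG18A (-1.10) fell most and ATG7 was not called (adjusted p = 0.0703).

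Sugar transporters and sucrose-cleaving enzymes did not move as one. Of 29, 9 rose and 13 fell. SUC1, a proton-coupled sucrose importer, was the one carrier of 12 that rose, with 307 and 192 CPM with lit shoots, against 23.4 and 28.3 CPM with dark shoots (log2 fold change 3.27 ± 0.23, adjusted p = 8.79e-06). Of the others, 7 fell, among them STP14, which had 0.947 and 1.02 CPM with lit shoots, against 7.12 and 6.31 CPM with dark shoots (log2 fold change -2.76 ± 0.35, adjusted p = 0.000128), and TMT2 was not called (adjusted p = 0.924). The exporter SWEET12, which loads sucrose into the leaf phloem, had 2.69 and 0.962 CPM with lit shoots, against 150.4 and 158 CPM with dark shoots (log2 fold change -6.43 ± 0.62, adjusted p = 0.000131), and SWEET11, its close relative, had 0.364 and 0.0601 CPM with lit shoots, against 5.25 and 20.4 CPM with dark shoots (log2 fold change -5.97 ± 1.01, adjusted p = 0.00143). Both were far lower with lit shoots, although the 2 libraries of a group differed widely at SWEET11. SWEET17, a vacuolar fructose transporter, rose with 23.5 and 25.4 CPM with lit shoots, against 5.21 and 5.25 CPM with dark shoots (log2 fold change 2.22 ± 0.19, adjusted p = 1.81e-05), as did SWEET13 (2.48), while SWEET1 was not called (adjusted p = 0.759). At SWEET12 the log2 fold change was -7.32 without lit-shoot replicate 1 and -5.84 without lit-shoot replicate 2. At SWEET11 the log2 fold change was -6.65 without dark-shoot replicate 1, -4.71 without dark-shoot replicate 2, -7.64 without lit-shoot replicate 1 and -5.13 without lit-shoot replicate 2. At SWEET13 the log2 fold change was 3.098 without dark-shoot replicate 2.

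Sucrose synthases parted ways. SUS4 had 20.7 and 12.6 CPM with lit shoots, against 0.955 and 1.03 CPM with dark shoots (log2 fold change 4.06 ± 0.29, adjusted p = 6.9e-06). SUS3 had 39 and 52.6 CPM with lit shoots, against 284 and 283 CPM with dark shoots (log2 fold change -2.63 ± 0.21, adjusted p = 1.44e-05), and SUS1 had 61.3 and 62 CPM with lit shoots, against 111 and 122 CPM with dark shoots (log2 fold change -0.92 ± 0.14, adjusted p = 0.000341). Thus SUS4 was higher with lit shoots, while SUS3 and SUS1 were higher with dark shoots. The cytosolic invertase CINV1 differed little (-0.32), and the wall invertase ATBFRUCT1 was not called (adjusted p = 0.121). CINV1 was no longer called with the 7-day libraries alone (-0.32), under scaling by library totals (-0.15), with no filter (-0.31), without dark-shoot replicate 1 (-0.27) and without lit-shoot replicate 1 (-0.24). Of the 10 cleavage enzymes, 6 rose (60%) and 3 fell (30%), against 36.6% and 33.2% over all loci.

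**Figure D2:**
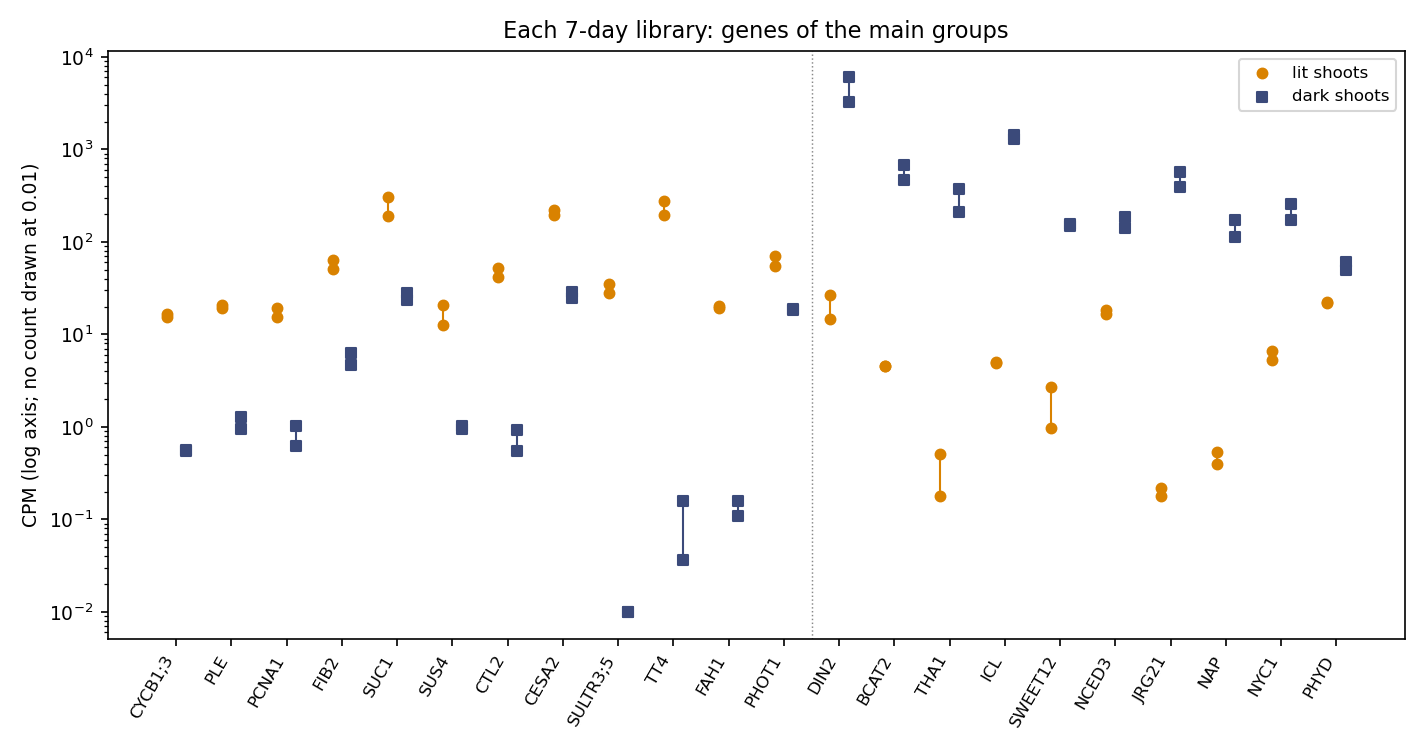
CPM (vertical log axis) of 22 genes in each 7-day library, with lit shoots as orange circles left of dark shoots as blue squares; a line joins the 2 libraries of a group, and genes without a count are drawn at 0.01. Left of the dotted line are genes higher with lit shoots and right of it genes higher with dark shoots, and in none do the groups overlap. All 22 were picked by hand from called genes, and the groups do not overlap at 85.9% of all loci.

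Cell wall genes rose without exception. All 25 tested were called higher, 9 of 9 for primary wall cellulose and 16 of 16 for secondary wall and xylem, at medians of 1.55 and 4.73. CESA2, a cellulose synthase of growing walls, had 221 and 198 CPM with lit shoots, against 24.7 and 29 CPM with dark shoots (log2 fold change 2.96 ± 0.12, adjusted p = 9.86e-07), and the chitinase-like protein CTL1, needed for cellulose deposition, had 373 and 359.9 CPM with lit shoots, against 56.9 and 60.4 CPM with dark shoots (log2 fold change 2.64 ± 0.11, adjusted p = 9.86e-07). In the secondary wall, the related CTL2 had 52.1 and 41.7 CPM with lit shoots, against 0.915 and 0.551 CPM with dark shoots (log2 fold change 6.001 ± 0.26, adjusted p = 1.3e-06). MYB83, a master switch of secondary wall formation, had 2.51 and 1.56 CPM with lit shoots, against 0.0398 and 0.0367 CPM with dark shoots (log2 fold change 5.57 ± 0.63, adjusted p = 6.98e-05). MYB83 had 2 counts in all with dark shoots, for which the 95% counting interval of its ratio was 14.1 to 436-fold. Monolignol genes, which make the building blocks of lignin, rose at 13 of 14 loci. The ferulate 5-hydroxylase FAH1 had 19.4 and 20.3 CPM with lit shoots, against 0.159 and 0.11 CPM with dark shoots (log2 fold change 7.17 ± 0.41, adjusted p = 3.12e-06), and PAL1, the entry enzyme of phenylpropanoid synthesis, had 848 and 779.9 CPM with lit shoots, against 74.5 and 72.7 CPM with dark shoots (log2 fold change 3.47 ± 0.19, adjusted p = 2.54e-06). CAD5 was not called (adjusted p = 0.521).

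Flavonol genes rose at all 11 tested loci with a median of 7.20, although the roots of both groups were in the dark. The median was 6.43 without dark-shoot replicate 1 and 8.83 without dark-shoot replicate 2. Chalcone synthase, TT4, had 279 and 194 CPM with lit shoots, against 0.159 and 0.0367 CPM with dark shoots (log2 fold change 11.20 ± 0.42, adjusted p = 1.17e-06). Chalcone isomerase, TT5, had 35.1 and 20.6 CPM with lit shoots, against 0 and 0.0367 CPM with dark shoots (log2 fold change 10.20 ± 0.64, adjusted p = 6.55e-06), with 1 count in all with dark shoots and a counting interval of 255 to 56201-fold. At TT4 the log2 fold change was 12.48 without dark-shoot replicate 1 and 10.46 without dark-shoot replicate 2. At TT5 the log2 fold change was 9.39 without dark-shoot replicate 1 and 12.58 without dark-shoot replicate 2.

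Glucosinolate genes, for sulfur-rich defence compounds, rose at 21 of 23 loci and fell at none, with medians of 7.39 for the methionine-derived branch and 2.30 for the shared and tryptophan-derived steps. The first median was 12.07 without dark-shoot replicate 1 and 6.97 without dark-shoot replicate 2. It stayed at 7.39 with the 3 genes that had no dark-shoot count set at the lower limit of their fold. CYP83A1, a cytochrome P450 of the aliphatic branch, had 16.5 and 52.1 CPM with lit shoots, against 0 and 0 CPM with dark shoots. CYP79F2, another P450 of that branch, had 23.2 and 32.2 CPM with lit shoots, against 0 and 0 CPM with dark shoots. With no dark-shoot count, and against a floor of 3 counts over that group, they were at least 628-fold and 492-fold higher with lit shoots. With one or the other dark-shoot library left out, the floor falls on 1 library alone, and every such limit given here is 1.92 or 2.08 times lower. MAM1, which lengthens the methionine side chain, had 10.7 and 37.5 CPM with lit shoots, against 0 and 0 CPM with dark shoots and was at least 444-fold higher. Without lit-shoot replicate 2 the limits were 287-fold for CYP83A1 and 187-fold for MAM1. CYP79B3 and CYP79B2, which convert tryptophan to its oxime, had log2 fold changes of 5.21 and 4.18, with 377 and 217 CPM with lit shoots, against 5.69 and 10.3 CPM with dark shoots for CYP79B3. SOT18 was not called (adjusted p = 0.124), nor was MYB51, a regulator of the indole branch (adjusted p = 0.46). Without lit-shoot replicate 1, MYB51 was called lower (log2 fold change -1.57, adjusted p = 0.00145 by edgeR). The 2 lit-shoot libraries differed more than usual here, by a median of 0.60 on the log2 scale against 0.19 over all loci.

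Root triterpene genes, clustered enzymes of root-specific metabolites that shape the root microbiota, rose at 8 of 11 loci with a median of 4.28. CYP716A2 had 51.9 and 43.5 CPM with lit shoots, against 0 and 0 CPM with dark shoots, and was at least 825-fold higher. CYP708A2 of the thalianol cluster had 419 and 283 CPM with lit shoots, against 6.05 and 8.19 CPM with dark shoots (log2 fold change 5.62 ± 0.55, adjusted p = 0.000133). CYP705A1 fell, with 26.4 and 24.3 CPM with lit shoots, against 56.4 and 55 CPM with dark shoots (log2 fold change -1.14 ± 0.10, adjusted p = 1.6e-05), and CYP716A1 was not called (adjusted p = 0.646).

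Nutrient uptake genes were mixed by element. Sulfur genes rose at 15 of 19 loci and fell at none. SULTR3;5, a sulfate transporter of the root stele, had 35.1 and 27.7 CPM with lit shoots, against 0 and 0 CPM with dark shoots and was at least 542-fold higher. SULTR1;1, a high-affinity uptake carrier, had 2.99 and 2.68 CPM with lit shoots, against 0 and 0.0367 CPM with dark shoots, with 1 dark-shoot count and a counting interval of 26.1 to 5858-fold. SULTR4;1 was not called (adjusted p = 0.859). AKN2 and APK, kinases that make the activated sulfate used on glucosinolates, had log2 fold changes of 3.75 and 2.59, while the reductase APR2 was not called (adjusted p = 0.819). At SULTR1;1 the log2 fold change was 6.10 without dark-shoot replicate 1 and 9.28 without dark-shoot replicate 2. At AKN2 the log2 fold change was 4.52 without dark-shoot replicate 2.

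Nitrogen genes rose at 13 of 27 loci (48.1%) and fell at 5 (18.5%), against 36.6% and 33.2% over all loci. NRT2:1, the main high-affinity nitrate transporter, had 11.3 and 4.21 CPM with lit shoots, against 0.358 and 0.147 CPM with dark shoots (log2 fold change 4.92 ± 0.73, adjusted p = 0.000573), while its partner protein NRT3.1 had 174 and 124 CPM with lit shoots, against 285 and 241 CPM with dark shoots (log2 fold change -0.82 ± 0.19, adjusted p = 0.00406) and so fell. Nitrate reductase NIA1 had 44.6 and 43.1 CPM with lit shoots, against 5.61 and 6.31 CPM with dark shoots (log2 fold change 2.88 ± 0.21, adjusted p = 7.61e-06), but NIA2 was not called (adjusted p = 0.939). The transporter NRT1.8 (-2.48) and the regulators NLP7 (-1.12) and LBD37 (-0.41) fell. At NRT2:1 the log2 fold change was 5.66 without dark-shoot replicate 1 and 4.05 without lit-shoot replicate 1. LBD37 was no longer called under scaling by library totals (-0.25), without dark-shoot replicate 1 (-0.39) and without lit-shoot replicate 2 (-0.27). In ammonium assimilation, the ferredoxin-dependent glutamate synthase GLU1 had 7.57 and 9.02 CPM with lit shoots, against 0.0796 and 0.0367 CPM with dark shoots (log2 fold change 7.07 ± 0.56, adjusted p = 1.28e-05), with 3 dark-shoot counts and a counting interval of 49.7 to 710.4-fold. Asparagine synthetase ASN2, whose relative DIN6 fell, had 29.4 and 47.9 CPM with lit shoots, against 3.02 and 3.6 CPM with dark shoots (log2 fold change 3.54 ± 0.25, adjusted p = 7.9e-06). The ammonium transporter AMT2 fell (-0.88), and the NADH-dependent glutamate synthase GLT1 was not called (adjusted p = 0.962). Phosphate genes counted 6 higher and 6 lower of 16, near the shares over all loci (36.6% and 33.2%). Aquaporins rose at 10 of 20 (50%) and fell at 3 (15%). Their summed level was not higher, with 4300 and 6211 CPM with lit shoots, against 6574 and 6088 CPM with dark shoots.

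Iron uptake genes rose at 7 of 9 loci. IRT1, the main root iron transporter, had 273 and 477 CPM with lit shoots, against 0.119 and 0.0367 CPM with dark shoots (log2 fold change 12.18 ± 1.21, adjusted p = 0.000146). CYP82C4, which makes the coumarin sideretin, had 31.5 and 171 CPM with lit shoots, against 0.0398 and 0 CPM with dark shoots (log2 fold change 12.07 ± 1.85, adjusted p = 0.00117), with 1 dark-shoot count and a counting interval of 1016 to 223714-fold. NRAMP1 (-1.88) and PDR9, the coumarin exporter also called ABCG37 (-1.22), fell. At IRT1 the log2 fold change was 13.14 without dark-shoot replicate 1 and 11.53 without dark-shoot replicate 2. At CYP82C4 the log2 fold change was 14.46 without dark-shoot replicate 1, 11.12 without dark-shoot replicate 2, 12.82 without lit-shoot replicate 1 and 10.37 without lit-shoot replicate 2. Regulators and storage genes disagreed between the 2 lit-shoot libraries. The regulator bHLH38 had 74.4 and 4.75 CPM with lit shoots, against 1.03 and 0.587 CPM with dark shoots, and the ferritin FER1 had 22.4 and 197 CPM with lit shoots, against 189 and 133 CPM with dark shoots. Replicate 1 was thus high for the deficiency regulator and low for the storage protein, and replicate 2 the reverse. Of the 27 iron genes, 6 were over 2-fold higher in lit-shoot replicate 1 and 6 were over 2-fold higher in replicate 2, while 1 was over 2-fold apart in the dark-shoot libraries. Opposite-strand loci overlap 31.9% of bHLH38 and 63.6% of FER1; both were chosen to illustrate this after their values were seen.

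Among the other regulators, bHLH100 had 11.5 and 0.481 CPM with lit shoots, against 0 and 0 CPM with dark shoots, and was at least 95.4-fold higher over the group. MYB10, a regulator of nicotianamine synthesis, rose (5.73). At bHLH100 the log2 fold change was 6.74 without lit-shoot replicate 1 and 11.26 without lit-shoot replicate 2. bHLH100 was no longer called without dark-shoot replicate 1 (10.38) and without dark-shoot replicate 2 (10.36). At MYB10 the log2 fold change was 4.81 without dark-shoot replicate 1 and 9.88 without dark-shoot replicate 2. Log2 values of bHLH100, which had no dark-shoot count, are fitted values and no bound, and its limit was 8.4-fold without lit-shoot replicate 1. PYE (-0.96) and BTS (-0.99), which restrain the deficiency response, fell. For bHLH101 the libraries had 26.6 and 6.58 CPM with lit shoots, against 17.3 and 11.8 CPM with dark shoots, and it was not called (adjusted p = 0.794). At bHLH101 the log2 fold change was 0.87 without lit-shoot replicate 2. At bHLH101 the log2 fold change reversed, to -1.14 without lit-shoot replicate 1. The nicotianamine synthases NAS4 (4.99) and NAS1 (3.76) rose, the citrate exporter FRD3 fell (-0.54) and FER4 was not called (adjusted p = 0.805). At NAS4 the log2 fold change was 5.61 without dark-shoot replicate 2, 2.45 without lit-shoot replicate 1 and 5.86 without lit-shoot replicate 2. NAS4 was no longer called without dark-shoot replicate 1 (4.56). FRD3 was no longer called with the 7-day libraries alone (-0.54), under scaling by library totals (-0.38), without dark-shoot replicate 2 (-0.34) and without lit-shoot replicate 1 (-0.32).

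Clock genes fell at 11 of 17 loci and rose at 1, with a median of -1.09. LNK2, a coactivator of the evening genes, had 31.9 and 67.9 CPM with lit shoots, against 815 and 653 CPM with dark shoots (log2 fold change -3.88 ± 0.46, adjusted p = 0.000291), and fell. ELF4, of the evening complex, was the one that rose, with 14.5 and 4.51 CPM with lit shoots, against 0.358 and 1.32 CPM with dark shoots (log2 fold change 3.47 ± 0.87, adjusted p = 0.0101). LUX, 38.5% of which an opposite-strand locus overlaps, was not called (adjusted p = 0.807). At LNK2 the log2 fold change was -4.52 without lit-shoot replicate 2. At ELF4 the log2 fold change was 4.68 without dark-shoot replicate 2, 2.399 without lit-shoot replicate 1 and 4.08 without lit-shoot replicate 2. ELF4 was no longer called without dark-shoot replicate 1 (2.83). The 2 lit-shoot libraries differed by a median of 0.99 on the log2 scale at these genes, with 8 of 17 over 2-fold apart, against 2.12% of all loci. The morning genes CCA1 and LHY, chosen after their values were seen, had 11.6 and 30.8 CPM with lit shoots, against 134 and 167 CPM with dark shoots for CCA1 and 18.7 and 53.8 CPM with lit shoots, against 146 and 140.3 CPM with dark shoots for LHY. Replicate 2 was higher at both, and still below both dark-shoot libraries. Light and dark cycles were given to the lit-shoot group only, and the hour of harvest is not given in the sources used here, so shoot light and clock phase cannot be told apart.

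Light receptors, present in these unlit roots, fell at 9 of 10 loci. The phytochrome PHYD had 21.6 and 22.7 CPM with lit shoots, against 50.2 and 60.6 CPM with dark shoots (log2 fold change -1.32 ± 0.12, adjusted p = 2.09e-05). PHOT1, the blue-light receptor of root phototropism, was the one that rose, with 54.4 and 70.2 CPM with lit shoots, against 18.2 and 19 CPM with dark shoots (log2 fold change 1.75 ± 0.14, adjusted p = 1.01e-05). The 2 groups did not overlap at either gene, as at 85.9% of all loci. Among 13 regulators, 2 rose (15.4%) and 4 fell (30.8%), against 36.6% and 33.2% over all loci. PIL5, a phytochrome-interacting factor, fell (-2.49), HYH, the relative of HY5, rose (2.13), as did SPA4 (1.05), and SPA3 was not called (adjusted p = 0.735). At PIL5 the log2 fold change was -3.38 without lit-shoot replicate 1. At HYH the log2 fold change was 1.44 without dark-shoot replicate 1 and 3.49 without dark-shoot replicate 2. HYH was no longer called without lit-shoot replicate 2 (1.78).

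Nuclear photosynthesis genes rose at 22 of 29 loci and fell at 2. Chlorophyll genes counted 4 higher and 3 lower of 10, near the shares over all loci (36.6% and 33.2%). Loci of the plastid genome itself rose at 22 and fell at 20 of 85 (25.9% and 23.5%), and mitochondrial loci rose at 22 and fell at 6 of 62 (35.5% and 9.68%). Mitochondrial loci took 6.46% and 2.66% of all counts in the 2 lit-shoot libraries, against 4.59% and 5.09% in the dark-shoot ones, so the lit-shoot libraries lay on either side. Of these loci 21 rose and 10 fell without lit-shoot replicate 1, and 17 rose and 4 fell without replicate 2. LHCB3, a light-harvesting protein, had 3.28 and 6.31 CPM with lit shoots, against 0 and 0 CPM with dark shoots and was at least 86.2-fold higher. LHB1B2 had 28 and 37.8 CPM with lit shoots, against 0.0796 and 0.11 CPM with dark shoots (log2 fold change 8.36 ± 0.52, adjusted p = 8.73e-06). LHCB4.1 fell, with 10.05 and 10.5 CPM with lit shoots, against 37.2 and 31.8 CPM with dark shoots (log2 fold change -1.74 ± 0.25, adjusted p = 0.000313), as did LHCA2 (-1.89), and LHCB4.2 was not called (adjusted p = 0.183). The plastocyanin DRT112 (log2 fold change 7.27, with 2 dark-shoot counts and a counting interval of 48.2 to 1450.4-fold) and the photosystem I subunit PSAD-1 (4.82) rose, and PSBO2 was not called (adjusted p = 0.842). In carbon fixation, RBCS1A had 4.12 and 3.22 CPM with lit shoots, against 0.0796 and 0.0367 CPM with dark shoots (log2 fold change 5.89 ± 1.36, adjusted p = 0.00753), with 3 dark-shoot counts and a counting interval of 21.4 to 309-fold, GAPA rose (2.61), and RCA was not called (adjusted p = 0.338). At LHCB3 the log2 fold change was 9.45 without lit-shoot replicate 2. LHCA2 was no longer called without dark-shoot replicate 1 (-1.58), without dark-shoot replicate 2 (-2.19), without lit-shoot replicate 1 (-1.86) and without lit-shoot replicate 2 (-1.93). At DRT112 the log2 fold change was 10.52 without dark-shoot replicate 1 and 6.26 without dark-shoot replicate 2. At PSAD-1 the log2 fold change was 5.50 without dark-shoot replicate 2. RBCS1A was no longer called without dark-shoot replicate 2 (5.41). For LHCB3, with no dark-shoot count, the log2 value is a fitted one and no bound, and the limit was 57.2-fold without lit-shoot replicate 2.

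Shoot markers were read beside these genes. Of 16 markers, 12 were below the filter, among them STM, CLV3, MUTE, FMA, EPF1 and AFO, each with at most 2 counts in a group. The epidermal gene PDF1 had 10.9 and 14.2 CPM with lit shoots, against 0.119 and 0.0367 CPM with dark shoots (log2 fold change 7.28 ± 0.63, adjusted p = 1.85e-05), and the wax gene CER1 had 2.37 and 3.49 CPM with lit shoots, against 0.836 and 0.404 CPM with dark shoots (log2 fold change 2.25 ± 0.55, adjusted p = 0.0056). ATML1 and KCS10 were not called. At PDF1 the log2 fold change was 8.24 without dark-shoot replicate 1 and 6.63 without dark-shoot replicate 2. At CER1 the log2 fold change was 2.84 without dark-shoot replicate 1. The summed level of all 16 ran from 60.5 to 64.4 CPM with lit shoots, against 49.7 to 53.4 CPM with dark shoots, and their part in the photosynthesis result was not tested. None of 9 seed storage genes passed the filter.

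Stress hormone genes were lower with lit shoots. Jasmonate genes fell at 20 of 25 loci and rose at 2. The lipoxygenases LOX3 and LOX4, which start jasmonate synthesis, had log2 fold changes of -5.63 and -5.51, with 4.55 and 1.2 CPM with lit shoots, against 135 and 121 CPM with dark shoots for LOX4. AOC2 was not called (adjusted p = 0.832). JRG21, an oxygenase that inactivates jasmonate, had 0.218 and 0.18 CPM with lit shoots, against 569 and 395 CPM with dark shoots (log2 fold change -11.22 ± 0.30, adjusted p = 2.64e-07). VSP1 and VSP2, vegetative storage proteins that jasmonate induces, went the other way, VSP1 with 48.4 and 23.4 CPM with lit shoots, against 0.716 and 0.477 CPM with dark shoots (log2 fold change 5.91 ± 0.42, adjusted p = 9.56e-06) and VSP2 with 1.68 and 0.451 CPM with lit shoots, against 0 and 0 CPM with dark shoots. VSP2 was at least 17.5-fold higher. At LOX3 the log2 fold change was -6.93 without lit-shoot replicate 1 and -4.88 without lit-shoot replicate 2. At LOX4 the log2 fold change was -6.73 without lit-shoot replicate 1 and -4.81 without lit-shoot replicate 2. At VSP1 the log2 fold change was 5.29 without lit-shoot replicate 1. At VSP2 the log2 fold change was 6.65 without lit-shoot replicate 1 and 8.48 without lit-shoot replicate 2. The log2 values of VSP2 are fitted against no dark-shoot count and are no bound, and its limit was 7.87-fold without lit-shoot replicate 1.

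Abscisic acid genes fell at 17 of 21 loci. NCED3, the rate-setting enzyme of its synthesis under stress, had 18.5 and 16.6 CPM with lit shoots, against 184 and 142 CPM with dark shoots (log2 fold change -3.22 ± 0.16, adjusted p = 1.73e-06), and CYP707A3, which breaks the hormone down, had 25.9 and 15.6 CPM with lit shoots, against 124 and 171 CPM with dark shoots (log2 fold change -2.84 ± 0.27, adjusted p = 5.68e-05). Genes of both synthesis and breakdown were thus lower with lit shoots. ABA2 rose slightly (0.64), and ABA1 was not called (adjusted p = 0.268). Of the response genes, RD29B had 0 and 0.0301 CPM with lit shoots, against 4.7 and 3.23 CPM with dark shoots (log2 fold change -7.56 ± 0.83, adjusted p = 5.91e-05), with 1 lit-shoot count and a counting interval of 42.4 to 9480.5-fold for dark over lit shoots, and the phosphatase HAI2 had 0.0728 and 0.0902 CPM with lit shoots, against 2.86 and 1.43 CPM with dark shoots (log2 fold change -4.63 ± 0.66, adjusted p = 0.000271). RD29A rose, with 6.77 and 12.5 CPM with lit shoots, against 2.63 and 1.06 CPM with dark shoots (log2 fold change 2.399 ± 0.57, adjusted p = 0.00822), and COR47 was not called (adjusted p = 0.902). At RD29B the log2 fold change was -6.84 without lit-shoot replicate 1 and -9.72 without lit-shoot replicate 2. At RD29A the log2 fold change was 3.166 without dark-shoot replicate 1. RD29A was no longer called without lit-shoot replicate 2 (1.89). Ethylene genes fell at 10 of 16 loci and rose at 4.

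JRG21, THA1 and ICL are 3 of the 6 loci with a symbol that fell most on the log2 scale at a mean of 5 CPM or more, and were picked after their values were seen. AGL44, a MADS-box factor of the nitrate response of roots, is another of the 6, with 0.146 and 0.0902 CPM with lit shoots, against 35.8 and 31 CPM with dark shoots (log2 fold change -8.12 ± 0.54, adjusted p = 1.63e-05). The 150 bases before the annotated starts of JRG21, THA1 and ICL are shown because each holds an ABRE core. This choice does not tell how many of the 6 hold it. Capitals mark ACGTGT, the core bound by bZIP factors of abscisic acid and starvation responses, or its reverse complement ACACGT. They lie at chr3:20769411-20769560, minus strand for JRG21, chr1:2747968-2748117, minus strand for THA1 and chr3:7656054-7656203, minus strand for ICL.
JRG21: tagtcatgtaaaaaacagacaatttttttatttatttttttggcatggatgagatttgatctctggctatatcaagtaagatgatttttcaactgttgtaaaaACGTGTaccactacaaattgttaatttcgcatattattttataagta
THA1: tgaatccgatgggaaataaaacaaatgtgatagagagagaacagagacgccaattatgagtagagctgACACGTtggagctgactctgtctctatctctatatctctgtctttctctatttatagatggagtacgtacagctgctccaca
ICL: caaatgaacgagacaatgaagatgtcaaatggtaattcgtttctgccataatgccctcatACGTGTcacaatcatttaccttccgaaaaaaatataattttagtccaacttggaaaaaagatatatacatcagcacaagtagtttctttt

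Of 489 protein-coding loci that fell by over 8-fold, 19.2% held ACGTGT on either strand within 250 bases before the start, against 10.9% of 1648 that rose by over 8-fold and 10.6% of all 26711. The G-box CACGTG, which overlaps ACGTGT in the run CACGTGT, was in 11.04% of those that fell, against 6.80% of those that rose and 6.58% of all. The I-box GATAAG was in 16.97%, against 10.9% and 12.2%. Site II was in 6.75% of those that fell and 8.80% of those that rose, against 13.9% of all. No test was run on these shares.

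Senescence genes fell at 17 of 20 loci. NAP, a NAC factor that drives leaf senescence, had 0.401 and 0.541 CPM with lit shoots, against 173 and 113 CPM with dark shoots (log2 fold change -8.21 ± 0.30, adjusted p = 7.99e-07), and NAC019 had 0.0728 and 0 CPM with lit shoots, against 7 and 5.18 CPM with dark shoots (log2 fold change -7.34 ± 0.60, adjusted p = 1.31e-05), with 2 lit-shoot counts and a counting interval of 50.5 to 1524-fold for dark over lit shoots. NYC1, which begins chlorophyll b breakdown, had 5.28 and 6.67 CPM with lit shoots, against 255 and 172 CPM with dark shoots (log2 fold change -5.15 ± 0.29, adjusted p = 5.12e-06). JUB1, a NAC factor that delays senescence, rose with 46 and 30.5 CPM with lit shoots, against 7.52 and 12.4 CPM with dark shoots (log2 fold change 1.94 ± 0.28, adjusted p = 0.000416), and so did SAG13, with 8.81 and 14.2 CPM with lit shoots, against 0.239 and 0.551 CPM with dark shoots (log2 fold change 4.83 ± 0.48, adjusted p = 3.38e-05). WIN3 was not called (adjusted p = 0.552). At NAC019 the log2 fold change was -10.39 without lit-shoot replicate 1 and -6.30 without lit-shoot replicate 2. At SAG13 the log2 fold change was 5.53 without dark-shoot replicate 2. Heat shock chaperone and regulator genes fell at all 5 tested loci, and HSFA2, a heat shock factor, had 0.874 and 0.842 CPM with lit shoots, against 39.8 and 20.6 CPM with dark shoots (log2 fold change -5.13 ± 1.24, adjusted p = 0.00917). The log2 fold changes of all 5 stayed below 0 when any 1 of the 4 7-day libraries was left out, but edgeR's calls did not hold: 1 of 5 was called without dark-shoot replicate 1 (3 at an unadjusted p under 0.05), 0 of 5 without lit-shoot replicate 1 (1 unadjusted) and 0 of 5 without lit-shoot replicate 2 (0 unadjusted). HSFA2 was no longer called without lit-shoot replicate 1 (-5.16) and without lit-shoot replicate 2 (-5.10). Hypoxia genes counted 3 higher and 3 lower of 9, near the shares over all loci (36.6% and 33.2%).

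Cytokinin response genes rose at 10 of 10 loci with a median of 1.59. ARR7, a response regulator that cytokinin induces, had 24.7 and 12.4 CPM with lit shoots, against 0.318 and 0.367 CPM with dark shoots (log2 fold change 5.73 ± 0.52, adjusted p = 3.05e-05), and ARR6 had 40.1 and 27 CPM with lit shoots, against 7.28 and 7.82 CPM with dark shoots (log2 fold change 2.15 ± 0.36, adjusted p = 0.00116). Genes of cytokinin synthesis and oxidation counted 5 higher and 3 lower of 11 (45.5% and 27.3%). Auxin genes rose at 19 and fell at 10 of 38 (50% and 26.3%). The shares over all loci were 36.6% and 33.2%.

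Root hair genes rose at 17 of 20 loci. RSL2, a transcription factor of hair elongation, had 10.5 and 17.04 CPM with lit shoots, against 0 and 0.0367 CPM with dark shoots (log2 fold change 9.19 ± 0.78, adjusted p = 2.76e-05), with 1 dark-shoot count and a counting interval of 132 to 29156-fold. WER, which specifies non-hair cells, rose as well, with 6.7 and 11.1 CPM with lit shoots, against 0.995 and 1.06 CPM with dark shoots (log2 fold change 3.11 ± 0.29, adjusted p = 2.39e-05). CPC (-0.76) and TTG1 (-0.49) fell. The hair wall protein PRP3 had 23.5 and 15.3 CPM with lit shoots, against 0.0796 and 0.147 CPM with dark shoots (log2 fold change 7.35 ± 1.15, adjusted p = 0.00129), the expansin EXPA18 had 16.2 and 21.6 CPM with lit shoots, against 0 and 0.0367 CPM with dark shoots (log2 fold change 9.64 ± 1.08, adjusted p = 0.000201), with 1 dark-shoot count and a counting interval of 179.7 to 39647-fold, and CSLD3, needed for hair walls, was not called (adjusted p = 0.522). At RSL2 the log2 fold change was 8.38 without dark-shoot replicate 1 and 11.56 without dark-shoot replicate 2. CPC was no longer called under scaling by library totals (-0.60), without dark-shoot replicate 2 (-0.37) and without lit-shoot replicate 1 (-0.66). At EXPA18 the log2 fold change was 8.83 without dark-shoot replicate 1 and 12.02 without dark-shoot replicate 2.

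Listed markers of the root tip did not rise as a group. Of 10 stem cell niche genes, 5 fell (50%) and 1 rose (10%), against 33.2% and 36.6% over all loci. Of 5 root cap genes, 2 fell (40%) and 1 rose (20%). CEL5, a root cap cellulase outside these lists, rose (9.16, with 2 dark-shoot counts). PLT3, which maintains the meristem, had 23 and 31.9 CPM with lit shoots, against 105 and 108 CPM with dark shoots (log2 fold change -1.96 ± 0.15, adjusted p = 8.98e-06), and UPB1, which sets where division stops, had 7.68 and 12.1 CPM with lit shoots, against 39 and 32.9 CPM with dark shoots (log2 fold change -1.86 ± 0.26, adjusted p = 0.000317). MGP, a zinc-finger protein of the ground tissue, rose (1.71), and WOX5, of the quiescent centre, was not called (adjusted p = 0.911). Both groups expressed the root auxin exporter PIN2, with 86.5 and 116 CPM with lit shoots, against 81.5 and 109.9 CPM with dark shoots (adjusted p = 0.681). Endodermal barrier genes rose at 9 of 20 loci (45%) and fell at 2 (10%), against 36.6% and 33.2% over all loci.

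**Figure D3:**
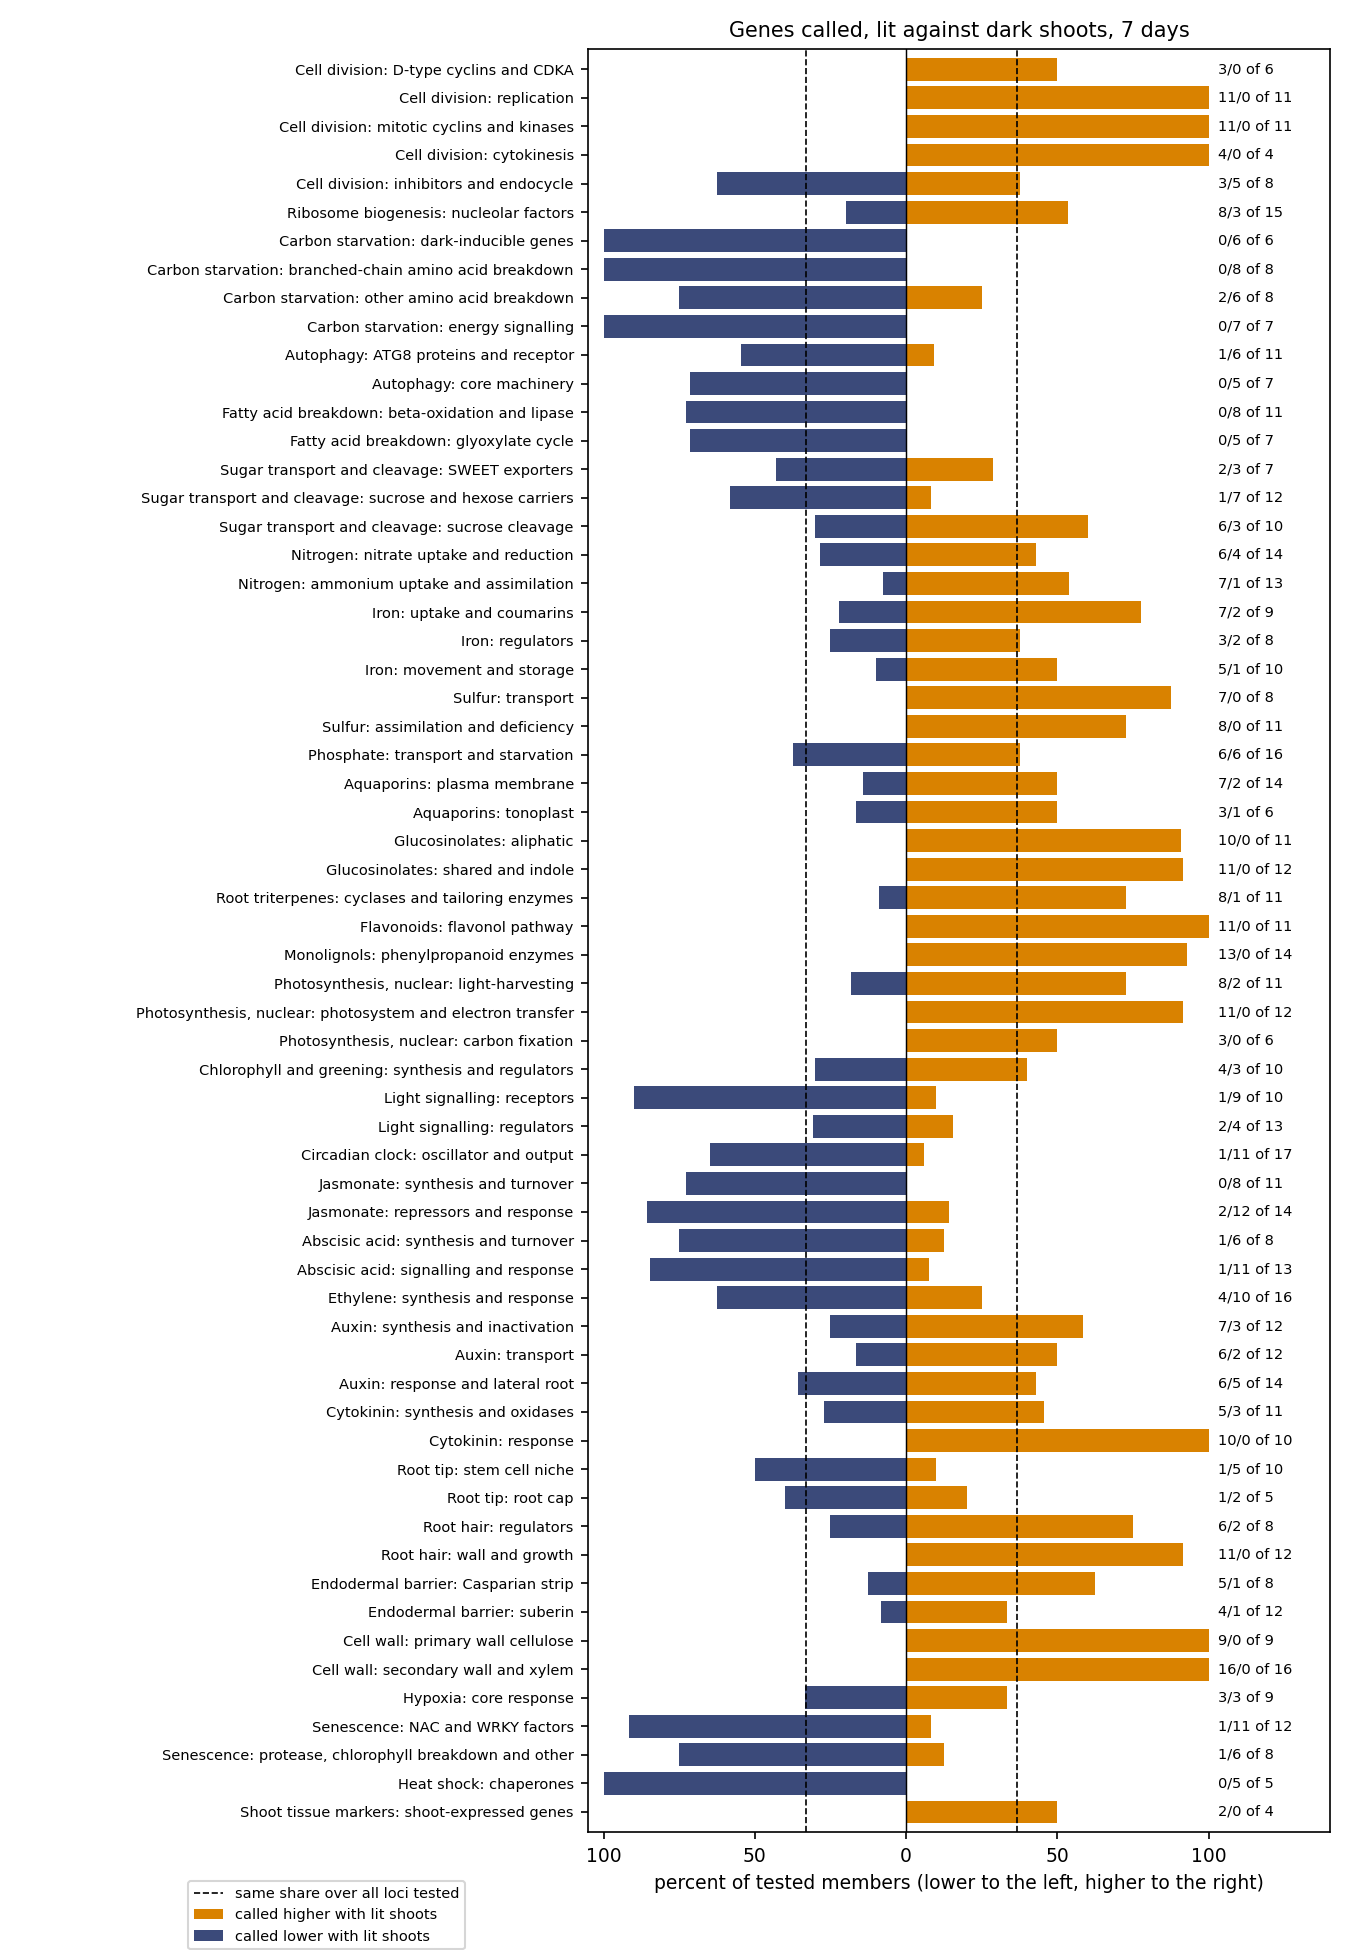
Percent of tested members called higher (orange, to the right) and lower (blue, to the left) with lit shoots in each group of genes, with the counts of higher and lower members at the right. Dashed lines mark the same shares over all loci, 36.6% and 33.2%. Replication, mitotic, cytokinesis, cell wall, flavonol and cytokinin response genes reach the right edge, and dark-inducible, branched-chain amino acid, energy and heat shock genes the left edge.

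The light effect itself was set against that at 4 days, by an interaction of light and age. Higher and lower here refer to the signed log2 effect, so a larger fall at 7 days counts as lower. The light effect differed at 3083 loci, 15.0% of those tested, 9.24% higher and 5.72% lower at 7 days. At 2279 of these the effect had the same sign on both days and was larger at 7, at 214 it was smaller, and at 590 the fitted signs were opposite, with both effects called at 120 of those. Among secondary wall and xylem genes, 14 of 16 had a higher light effect at 7 days, with a median of 4.73 at 7 days and 0.75 at 4 days. CTL2 had 40.2 and 34.2 CPM with lit shoots, against 16 and 20.6 CPM with dark shoots at 4 days, and the interaction on the log2 scale was 4.98 ± 0.33, adjusted p = 0.000205. Among cell division genes, 24 of 40 had a higher light effect at 7 days and 2 a lower one. Flavonol genes had a higher effect at 1 of 11, with medians of 7.20 and 7.47 on the 2 days. Carbon starvation genes had a lower light effect at 7 days at 12 of 29, with medians of -2.57 at 7 days and -1.91 at 4 days. By the median, their fall with lit shoots was thus larger at 7 days. Photosynthesis genes had a lower light effect at 4 of 29 and a higher one at none. Their medians were 3.39 at 7 days and 4.12 at 4 days, a smaller rise at 7 days. At 4 days RBCS1A had 59.4 and 13 CPM with lit shoots, against 0.0407 and 0 CPM with dark shoots, so the 2 lit-shoot libraries of that day differed widely. The interaction counts rested on single libraries: 1252 loci were higher and 357 lower without dark-shoot replicate 1, and 764 were lower without dark-shoot replicate 2.

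Genes with a symbol, a called interaction and a mean of 5 CPM or more were ranked by the interaction. At the 5 highest, the dark-shoot libraries were lower at 7 than at 4 days. ICS2, an isochorismate synthase, had 58.5 and 38.4 CPM with lit shoots, against 0.0398 and 0 CPM with dark shoots at 7 days and 13.3 and 11.6 CPM with lit shoots, against 0.652 and 0.995 CPM with dark shoots at 4 days. CEL5, a cellulase of the root cap, had 21.3 and 27.7 CPM with lit shoots, against 0 and 0.0734 CPM with dark shoots at 7 days and 55.9 and 48.9 CPM with lit shoots, against 6.93 and 14.6 CPM with dark shoots at 4 days. At both genes the lit-shoot libraries lay above the dark-shoot ones on both days. AGP30, an arabinogalactan protein of roots, had 46.3 and 30.0 CPM with lit shoots, against 0.199 and 0 CPM with dark shoots at 7 days and 51.9 and 64.8 CPM with lit shoots, against 11.2 and 10.4 CPM with dark shoots at 4 days. FRO2, the ferric reductase that feeds IRT1, had 194 and 329 CPM with lit shoots, against 0.955 and 0.514 CPM with dark shoots at 7 days and 10.11 and 47.4 CPM with lit shoots, against 5.05 and 4.02 CPM with dark shoots at 4 days. DJ1F, of the DJ-1 family, had 12.6 and 20.3 CPM with lit shoots, against 0.0398 and 0 CPM with dark shoots at 7 days and 3.04 and 3.78 CPM with lit shoots, against 1.79 and 0.649 CPM with dark shoots at 4 days. ICS2 and DJ1F each had 1 dark-shoot count at 7 days and CEL5 had 2, with counting intervals of 446 to 98300.5-fold, 158 to 34810.2-fold and 179 to 5363-fold. The interactions on the log2 scale were 7.98 ± 1.03, adjusted p = 0.00332 for DJ1F, 7.08 ± 0.81, adjusted p = 0.00201 for ICS2, 6.88 ± 0.89, adjusted p = 0.0045 for CEL5, 6.14 ± 0.67, adjusted p = 0.00222 for AGP30 and 5.82 ± 1.20, adjusted p = 0.026 for FRO2. MAM1 (adjusted p = 0.0561) and CYP716A2 (8.79, adjusted p = 0.0766) had larger fitted interactions than DJ1F and were not called. On the lower side, HOL2, a methyltransferase, had 0.51 and 0.24 CPM with lit shoots, against 104 and 64.6 CPM with dark shoots at 7 days and 7.68 and 2.54 CPM with lit shoots, against 29.7 and 27.4 CPM with dark shoots at 4 days (interaction -5.36 ± 0.85, adjusted p = 0.0118). The interaction was -5.15 ± 0.90, adjusted p = 0.0163 at THA1, -4.22 ± 0.52, adjusted p = 0.00387 at ICL, -3.56 ± 0.82, adjusted p = 0.0257 at SOM and -3.53 ± 0.51, adjusted p = 0.00473 at JRG21. SOM, a zinc-finger repressor of seed germination in the dark, had 0.0728 and 0.0301 CPM with lit shoots, against 27.5 and 21 CPM with dark shoots at 7 days, with 3 lit-shoot counts and a counting interval of 166 to 2367-fold for dark over lit shoots. Leaving out 1 library moved these values: at DJ1F 10.45 without dark-shoot replicate 1 and 7.12 without dark-shoot replicate 2, at ICS2 9.56 without dark-shoot replicate 1 and 6.23 without dark-shoot replicate 2, at CEL5 6.08 without dark-shoot replicate 1 and 10.18 without dark-shoot replicate 2, at AGP30 10.69 without dark-shoot replicate 1 and 5.16 without dark-shoot replicate 2 and at HOL2 -5.95 without lit-shoot replicate 1. FRO2 was no longer called without dark-shoot replicate 1 (6.38), without dark-shoot replicate 2 (5.47), without lit-shoot replicate 1 (6.15) and without lit-shoot replicate 2 (5.39). HOL2 was no longer called without lit-shoot replicate 2 (-4.88). THA1 was no longer called without lit-shoot replicate 1 (-6.01) and without lit-shoot replicate 2 (-4.53). SOM was no longer called without dark-shoot replicate 1 (-3.28), without lit-shoot replicate 1 (-4.20) and without lit-shoot replicate 2 (-3.04).

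**Figure D4:**
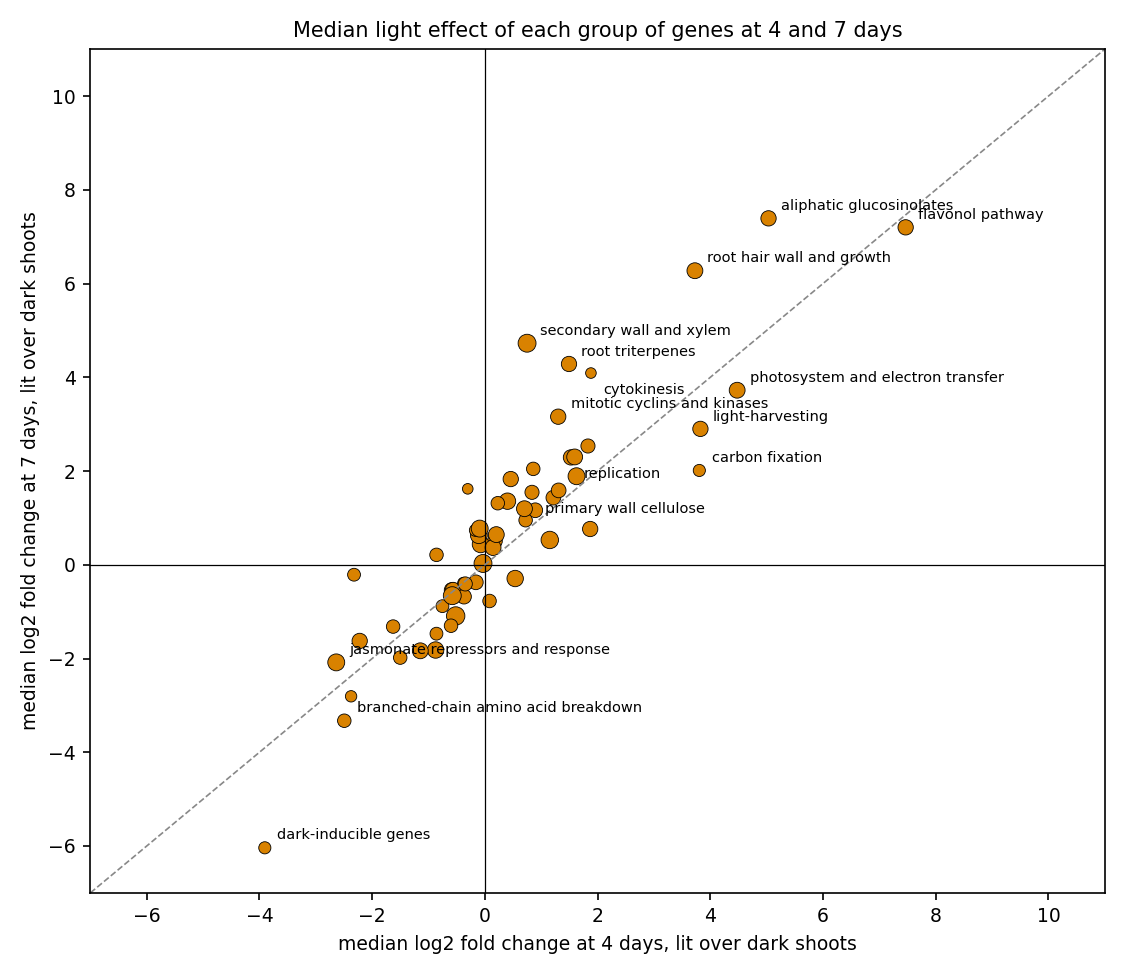
Median log2 fold change of lit over dark shoots at 7 days (vertical axis) against 4 days (horizontal axis), 1 point per group of genes with at least 4 members tested, with larger points for more members. On the dashed line both days are equal. Secondary wall and xylem genes lie far above it and photosynthesis groups below it.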

How the data were processed

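Root RNA was sequenced after ribosomal RNA depletion, per the labels' protocols. The authors deposited 1 table of raw read counts per locus. The submitters' processing notes name TopHat2, Subread, Trim Galore, FastQC, CASAVA 1.8.2 and build TAIR10. Whether reads were counted by strand, and how multi-mapping reads were treated, is not given in the sources used here. Totals at 7 days ran from 25849135 to 30555290 counts, and intervals and floors (3 counts over a group) cover counting error only.

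Counts were fitted with edgeR 4.0.16 (R 4.3.3; TMM scaling, robust quasi-likelihood test) over all 8 libraries with 1 coefficient per group, for loci with at least 10 counts in 2 of the 4 7-day libraries. Contrasts were Light7 minus Dark7 and the difference of that effect between 7 and 4 days, called at a Benjamini-Hochberg adjusted p below 0.05. CPM use the TMM-scaled library total. The fit was tested on simulated counts. DESeq2 1.42.0, other filters, other scalings, 7-day libraries alone, a replicate block and leaving out each 7-day library were alternatives. Tables were handled with python 3.11, pandas 2.3.3 and scipy 1.17.1.

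Of 705 loci in 33 hand-written gene lists, 693 matched the annotation and 633 were tested. Members and lists were chosen with earlier results of these data known. Named genes are the 10 called nuclear loci with a symbol that gained and the 10 that lost most CPM, the 6 with the largest log2 rise and fall at a mean of 5 CPM or more, the 5 with the largest change of light effect in each direction, and, in each gene group described, up to 2 called members with the largest change, any called member against the group's direction and the member with the highest adjusted p. The labels call the 2 samples of a group independent.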

Additional observations from a re-analysis of the deposited data

Results flagged for a closer look

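The light effect differed between 7 and 4 days at 3083 loci by edgeR's interaction test. Among named genes, the 7-day effect was higher on the log2 scale by 0.84 at ATMS1, 1.23 at PBP1, 5.76 at DR4, 7.98 at DJ1F, 7.08 at ICS2, 6.88 at CEL5, 6.14 at AGP30 and 5.82 at FRO2. It differed by -1.71 at HSPRO2, -3.53 at JRG21, -3.56 at SOM, -4.22 at ICL, -5.15 at THA1 and -5.36 at HOL2. With 1 dark-shoot library left out the values were 7.12 and 10.45 at DJ1F, 6.23 and 9.56 at ICS2, 6.08 and 10.18 at CEL5, and 5.16 and 10.69 at AGP30. Each was picked out because the difference between the 2 days itself passed the test at an adjusted p below 0.05.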

How the results depend on the processing

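Without 1 of the 4 7-day libraries, between 6509 and 7061 loci rose and between 6046 and 6425 fell with lit shoots, and between 1252 and 1891 had a higher and between 357 and 1061 a lower light effect at 7 than at 4 days. With no filter those 2 interaction counts were 3110 and 1854. The replicate block gave 7499 higher and 6811 lower loci; same-numbered samples deviated from their group means with a correlation of 0.015 at 7 days, so the replicate numbers were not taken to pair them. DESeq2 gave 7229 higher and 6675 lower, and the 7-day libraries alone 7183 and 6476. No locus called in both the reported fit and an alternative had the opposite sign in any of the 13 alternatives. Leaving out 1 library could reverse the sign of genes that were not called. Among iron genes, bHLH39 ranged from -1.81 to 0.41 on the log2 scale, OPT3 from -0.59 to 1.57 and bHLH101 from -1.14 to 0.87, by which lit-shoot replicate was left out. Sign changes were not confined to these 3. At the iron genes FER1, FER4 and VTL1 and the clock gene FKF1, the lit-shoot libraries lay on either side of both dark-shoot ones. The cause was not tested. With 2 libraries a group, transcripts under about 1 CPM rest on few counts and were called least often.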
